A study of Mus musculus with 8 samples.

Results

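The genes described here are 32 genes of fatty acid synthesis, lipid storage and adipogenic differentiation, chosen by symbol and found as 32 of the 54838 gene rows of the 2 deposited count tables. They were measured by RNA-seq of polyadenylated RNA in mouse embryonic fibroblasts (MEFs), primary connective tissue cells from embryos, in 8 libraries that form 4 groups of 2. The n-Sen cells were made senescent: RO3306, which blocks CDK1, held them in G2, then nutlin3a, which frees p53 from MDM2, acted for 48 h, and 100 nM BI-2536, a PLK1 inhibitor given to clear dividing cells, followed for 14 days. Proliferating cells were their reference. Further groups were n-Sen cells that spent another 24 h in medium buffered with HEPES, at alkaline pH (n-Sen_alkali) or at control pH (n-Sen_control), so these cells share the nutlin3a and BI-2536 history. All cells grew at low oxygen in medium with serum, and proliferating cells carry the treatment label Control. The labels give neither the strain nor the pH values, and do not say whether the replicates were separate cultures. The p-values below therefore measure the spread between these libraries, which may be technical, and senescence cannot be told apart from the drugs and the added time in culture.

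Cells build fatty acids in the cytosol. ATP citrate lyase and acetyl-CoA synthetase supply acetyl-CoA, acetyl-CoA carboxylase turns it into malonyl-CoA, and fatty acid synthase assembles palmitate with NADPH from malic enzyme and the pentose phosphate pathway. Elongases and desaturases then lengthen and unsaturate the chain, acyl-CoA synthetases activate it, and acyltransferases, lipins and DGAT enzymes esterify it to triglyceride, which is stored in droplets coated with perilipins. The transcription factor SREBP1 drives much of the synthetic branch, and PPAR gamma with C/EBP alpha drives the adipocyte programme, to which fibroblasts from embryos can be induced in culture. Lipases and carnitine palmitoyltransferase release and oxidise what was stored.

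Total counts ran from 40608517 to 54183060 per library, and the paired libraries of every group differed by more than sampling noise (chi-square divided by its degrees of freedom, 4.63 to 7.39). All 32 genes passed the filter on low counts, with single-library counts between 95 (Pparg, n-Sen_alkali replicate 2) and 39568 (Scd2, Proliferating replicate 2). Levels are given as CPM, the count scaled to library size after TMM, with all 8 libraries on 1 scale. They are the values of both libraries of a group or their mean (n = 2). Fold changes are log2 values ± SE, and every adjusted p, unless another tool is named, comes from the quasi-likelihood test in edgeR, adjusted by Benjamini-Hochberg over all genes tested, with 0.05 as the threshold. The lists of other genes below were fixed by name with earlier results of these data known.

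The cultures carried fibroblast RNA in every library: the 12 fibroblast markers summed to 18493 and 18337 CPM in n-Sen, 12256 and 11969 CPM in proliferating cells, 19388 and 19292 CPM in alkaline and 16849 and 18165 CPM in control medium. The defining adipocyte genes were at or near 0. Adipoq, Cfd, Retn, Lep, Cidec and Adig had no count in any of the 8 libraries, and Plin1 had at most 4 counts. The 12 adipocyte markers, which include the members Fabp4 and Lipe, summed to between 7.23 and 12.7 CPM. Macrophage markers were present: all 20 rose in n-Sen, with a summed level of 1296 and 1379 CPM against 68.5 and 59.8 CPM in proliferating cells. In alkaline medium 12 of the 20 fell, with sums of 1170 and 1167 CPM against 1345 and 1275 CPM in control medium. Endothelial markers summed to 10.9 and 9.22 CPM in n-Sen and 37.1 and 31.2 CPM in proliferating cells, where 3 fell and 1 rose of 6 tested, and Cldn5 had no count anywhere. Kdr, the VEGF receptor, made up most of that difference, with 2.55 and 2.59 CPM in n-Sen against 24.4 and 20.8 CPM in proliferating cells. In alkaline and control medium the endothelial sums were 12.1 and 9.12 CPM and 10.6 and 10.5 CPM, and 0 of 7 markers tested passed in edgeR or DESeq2, with 1 at an unadjusted p under 0.05 (1 passed with the replicate block or without a low-count filter, and 2 without n-Sen_alkali replicate 1).

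**Figure D1:**
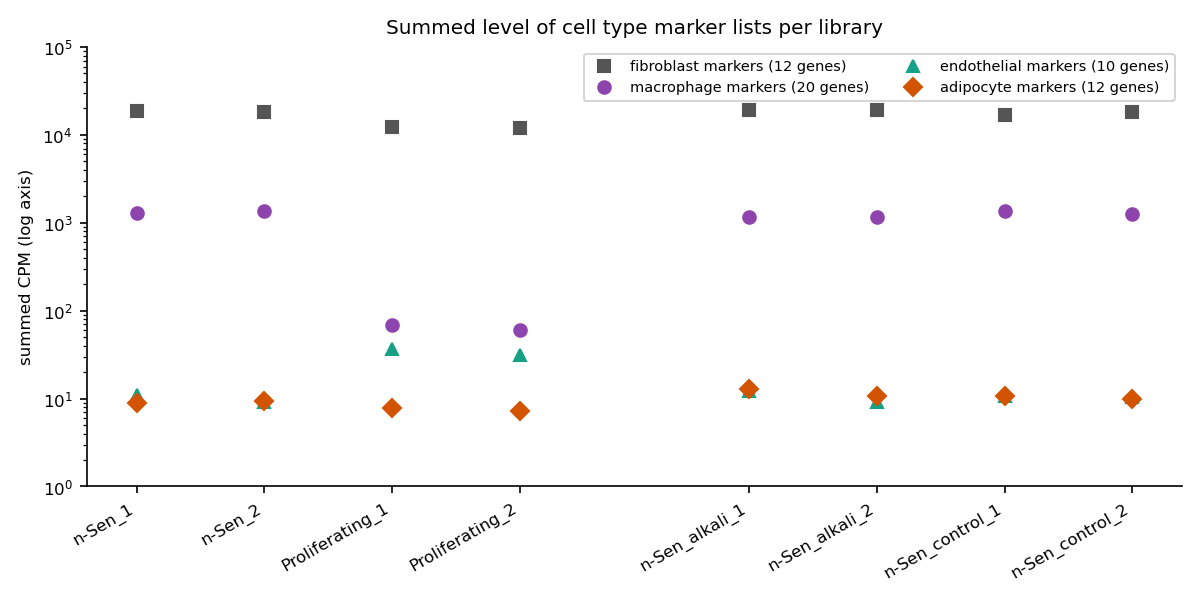
Summed CPM (log axis) of 4 lists of cell type markers in each of the 8 libraries; each point is 1 library. Macrophage markers lie at 1296 and 1379 CPM in n-Sen and at 68.5 and 59.8 CPM in proliferating cells, while adipocyte markers stay between 7.23 and 12.7 CPM in every library.

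Per kilobase of merged exons, the most abundant member in all 4 groups was Scd2, a stearoyl-CoA desaturase, with 97.0 CPM per kb in n-Sen, 148 in proliferating cells, 89.1 in alkaline and 83.1 in control medium. Me1, cytosolic malic enzyme, stood at 60.3 CPM per kb in n-Sen, above Fasn at 28.3, whereas in proliferating cells Me1 stood at 44.7 and Fasn at 60.7. Lipe, the hormone-sensitive lipase, and Fabp4, the adipocyte fatty acid binding protein, lay at 0.653 and 1.12 CPM per kb in n-Sen and at 0.396 and 0.861 in proliferating cells.

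In n-Sen cells, member transcripts for making, lengthening and desaturating fatty acids were mostly lower than in proliferating cells, and transcripts for coating droplets, releasing fatty acids and importing them into mitochondria were higher. Among the members, all 6 elongases and desaturases fell, by 0.55 to 2.31 on the log2 scale, 5 of 7 synthesis genes fell, and all 3 perilipins and all 3 genes of lipolysis and oxidation rose. Of the 32 genes, 11 rose, 16 fell and 5 did not pass, which is 84.4% called, where 67.1% of 19264 genes tested were called. The shares called higher were 34.4% of the members and 34.0% of all genes tested, and the shares called lower were 50.0% and 33.1%. Among the 12693 genes at least as abundant as Lipe, the least abundant member, 77.6% were called, 36.4% higher and 41.3% lower. By at least 1 on the log2 scale, 4 members rose and 6 fell, where 17.2% and 13.1% of all genes did. For 30 of the 32 members all n-Sen libraries lay on 1 side of the proliferating ones, as for 83.4% of all genes tested. The median log2 fold change was -0.26 for the members and 0.00 for all genes tested.

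**Figure D2:**
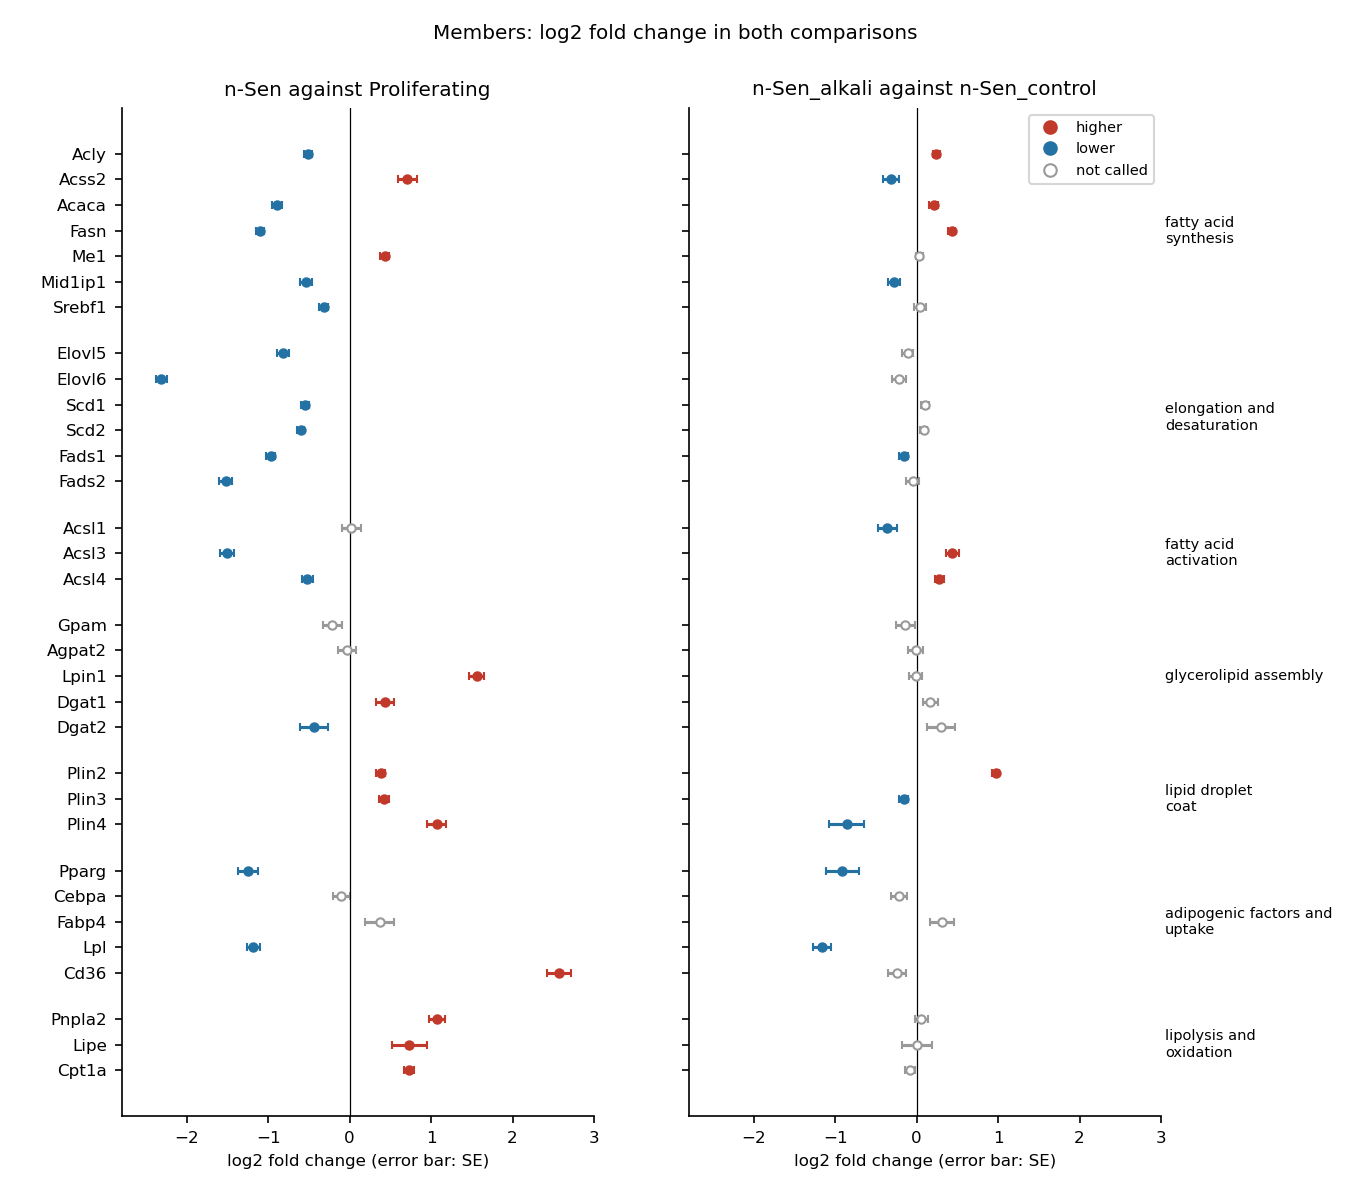
Log2 fold change (x axis, error bars SE) of the 32 members, grouped by role down the page, for n-Sen against proliferating cells (left) and alkaline against control medium (right). Filled red points were called higher, filled blue points lower, and open points were not called. On the left the 6 elongation and desaturation genes lie between -2.31 and -0.55; on the right most points lie near 0, with Plin2 at 0.97 and Lpl at -1.16 farthest out.

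Fasn, which encodes fatty acid synthase (chromosome 11, 120805846 to 120824547 on mm10), had 303 and 316 CPM in n-Sen, against 662 and 667 CPM in proliferating cells. Both n-Sen libraries lay far below both proliferating ones, a log2 fold change of -1.10 ± 0.0469 (adjusted p = 1.05e-12). Acaca, acetyl-CoA carboxylase, had 66.8 and 66.0 CPM in n-Sen and 120 and 127 CPM in proliferating cells (-0.89 ± 0.0595, adjusted p = 4.21e-10). Acly, ATP citrate lyase, had 251 and 246 CPM in n-Sen and 363 and 345 CPM in proliferating cells (-0.51 ± 0.0486). Transcripts for each step from citrate to palmitate were lower, least for Acly and most for Fasn. Mid1ip1, which promotes the polymerisation of acetyl-CoA carboxylase, fell by 0.53 and Srebf1, the gene of SREBP1, by 0.32 on the log2 scale. For Srebf1 the levels were 69.8 and 67.4 CPM in n-Sen and 87.1 and 84.5 CPM in proliferating cells. The remaining synthesis genes went the other way. Me1 had 231 and 233 CPM in n-Sen and 178 and 166 CPM in proliferating cells (0.43 ± 0.0520, adjusted p = 1.01e-06). Acss2, which makes acetyl-CoA from acetate, had 15 and 16.6 CPM in n-Sen and 9.17 and 10.2 CPM in proliferating cells (0.71 ± 0.119). Acss2, Mid1ip1, Srebf1, Acsl1, Lipe, Agpat2, Plin4, Cebpa, Me1 and Elovl6 share exon bases with genes on the opposite strand. On the same strand, Acsl3 shares exon bases with Utp14b, Srebf1 with Mir6922 and Scd2 with Mir5114. The values of all these genes are uncertain to that extent, and the strand setting of the counting is not given.

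Elovl6, the elongase that lengthens palmitate to stearate (chromosome 3, 129532355 to 129638495), changed most among the members that fell. It had 24.0 and 25.2 CPM in n-Sen, against 124 and 121 CPM in proliferating cells, so that the n-Sen level was 0.201 of the proliferating one (-2.31 ± 0.0655, adjusted p = 4.34e-15). Fads2 and Fads1, the desaturases that act in turn on polyunsaturated fatty acids, both lie on chromosome 19. Fads2 had 32.9 and 31.9 CPM in n-Sen and 101 and 84.7 CPM in proliferating cells (-1.52 ± 0.0785), and Fads1 had 83.6 and 87.9 CPM in n-Sen and 174 and 162 CPM in proliferating cells (-0.97 ± 0.0578). Elovl5, which elongates polyunsaturated chains between these desaturation steps, fell by 0.82 on the log2 scale. Scd1 and Scd2, the stearoyl-CoA desaturases that make monounsaturated fatty acids, fell less. Scd2 had 525 and 535 CPM in n-Sen and 825 and 788 CPM in proliferating cells (-0.60 ± 0.0448), and Scd1 had 124 and 126 CPM in n-Sen and 187 and 180 CPM in proliferating cells (-0.55 ± 0.0526). The 6 genes kept the groups apart without overlap, as did 83.4% of all genes tested in this comparison.

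Windows around the start sites of 3 members are shown because these genes lead the results: Elovl6 fell most in n-Sen, Fasn fell in n-Sen and rose in alkaline medium, and Plin2 rose most in alkaline medium. The windows come from RefSeq on GRCm38.p6, run 5′ to 3′ on the strand of the gene, and hold 250 bases before and 50 after the start. Capitals mark CCAAT boxes on either strand. Elovl6 is chr3:129532136-129532435 (plus strand), Fasn is chr11:120824498-120824797 (minus strand) and Plin2 is chr4:86670010-86670309 (minus strand).
Elovl6: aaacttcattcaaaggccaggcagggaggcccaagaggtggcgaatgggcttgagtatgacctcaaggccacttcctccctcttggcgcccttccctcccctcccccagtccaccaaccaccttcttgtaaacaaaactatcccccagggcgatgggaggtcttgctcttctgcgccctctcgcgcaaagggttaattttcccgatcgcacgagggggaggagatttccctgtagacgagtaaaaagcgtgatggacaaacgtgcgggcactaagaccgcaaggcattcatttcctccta
Fasn: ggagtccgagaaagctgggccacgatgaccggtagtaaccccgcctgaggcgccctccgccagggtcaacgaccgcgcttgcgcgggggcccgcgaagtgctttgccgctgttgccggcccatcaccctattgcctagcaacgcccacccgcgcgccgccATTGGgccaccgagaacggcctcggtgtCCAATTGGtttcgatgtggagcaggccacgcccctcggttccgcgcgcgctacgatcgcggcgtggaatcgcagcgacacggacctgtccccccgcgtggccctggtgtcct
Plin2: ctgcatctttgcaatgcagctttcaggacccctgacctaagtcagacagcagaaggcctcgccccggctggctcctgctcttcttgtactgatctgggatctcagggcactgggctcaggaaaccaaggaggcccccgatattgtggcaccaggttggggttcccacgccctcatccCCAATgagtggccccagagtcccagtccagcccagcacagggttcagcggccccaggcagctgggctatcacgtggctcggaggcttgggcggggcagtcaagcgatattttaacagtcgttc
The Fasn window held 3 CCAAT matches, of which 2 on opposite strands overlap, Plin2 held 1 and the Elovl6 window had no match. RefSeq windows were found for 25 of the 32 genes. CCAAT was present on either strand in at least 1 window of 15 of these genes (60.0%), against 41.1% of all 27025 genes with a window, or in 17 of their 33 windows (51.5%), against 37.4% of all 32851 windows. The sterol element TCACNCCAC, a form of the SREBP site, was found in that of Acsl1 alone and in 1.24% of all windows. The direct repeat known as the PPAR site was in 0.381% of all windows and in those of no member. These are matches of letters within short windows.

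**Figure D3:**
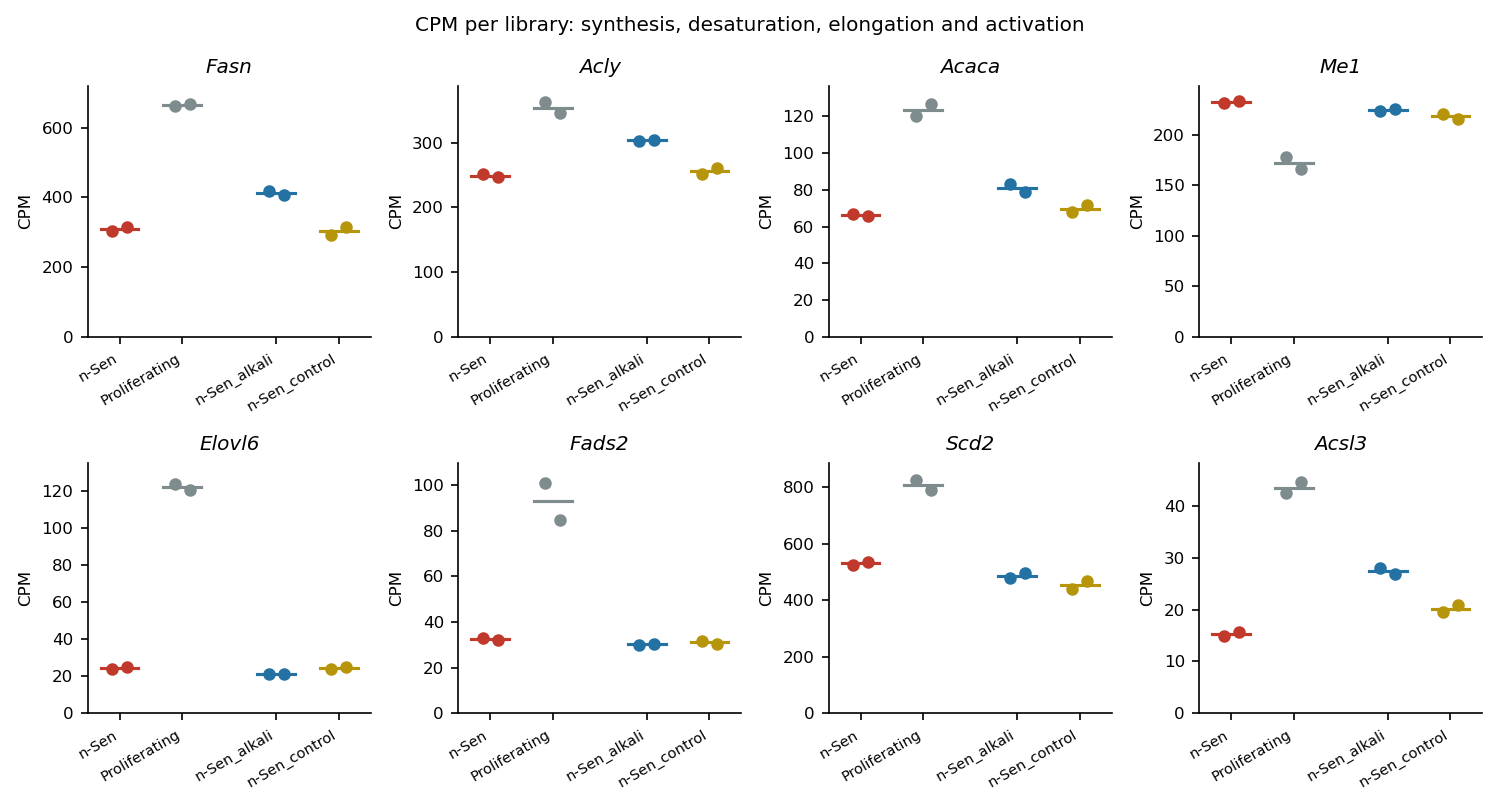
CPM (y axis, from 0) of 8 genes of synthesis, desaturation, elongation and activation; points are the 2 libraries of a group and bars their mean. Fasn stands at 303 and 316 CPM in n-Sen and 662 and 667 CPM in proliferating cells, and at 419 and 406 CPM in alkaline and 291 and 316 CPM in control medium; Elovl6 is low in all 6 n-Sen-derived libraries.

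Of the long-chain acyl-CoA synthetases among the members, which activate fatty acids, Acsl3 and Acsl4 fell in n-Sen and Acsl1 did not pass. Acsl3, found at the endoplasmic reticulum and on droplets, had 15 and 15.6 CPM in n-Sen and 42.5 and 44.6 CPM in proliferating cells (-1.51 ± 0.0855, adjusted p = 4.88e-11). Acsl4, which prefers arachidonate, had 63.3 and 56.2 CPM in n-Sen and 85.8 and 86.1 CPM in proliferating cells (-0.52 ± 0.0665). Acsl1 had 13.0 and 14.4 CPM in n-Sen and 14.6 and 12.6 CPM in proliferating cells, where the libraries overlapped (0.02 ± 0.116). The genes of glycerolipid assembly differed among themselves. Lpin1, a phosphatidate phosphatase that also acts as a transcriptional coactivator, had 34.3 and 34.5 CPM in n-Sen and 11.6 and 11.7 CPM in proliferating cells, a 2.95-fold higher level (1.56 ± 0.0910, adjusted p = 7.21e-11). Dgat1, which completes triglyceride, had 20.7 and 17.8 CPM in n-Sen and 13.4 and 14.9 CPM in proliferating cells (0.44 ± 0.110, adjusted p = 0.00193). Dgat2, which catalyses the same step, fell, with 4.03 and 4.59 CPM in n-Sen and 6.53 and 5.24 CPM in proliferating cells (-0.44 ± 0.175, adjusted p = 0.0347). The call of Dgat2 was lost without Proliferating replicate 1 (adjusted p = 0.24), without n-Sen replicate 1 (adjusted p = 0.185) and in DESeq2 (adjusted p = 0.107). Gpam, the mitochondrial acyltransferase that starts glycerolipid synthesis, and Agpat2, the acyltransferase of the next step, did not pass (-0.21 ± 0.117 and -0.03 ± 0.108). Gpam passed without n-Sen replicate 2 (-0.35, adjusted p = 0.0363).

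The 3 perilipins among the members, proteins that coat lipid droplets, rose in n-Sen. Of the others, Plin5 was tested at under 1 CPM and did not pass (-0.04 ± 0.765), and Plin1 was too low to test. Plin4, which is abundant in adipocytes, had 17.6 and 18.6 CPM in n-Sen and 8.28 and 8.98 CPM in proliferating cells (1.07 ± 0.114, adjusted p = 2.37e-07). Plin2, the perilipin of most non-adipose cells and of lipid-laden macrophages, had 135 and 141 CPM in n-Sen and 112 and 101 CPM in proliferating cells (0.38 ± 0.0599, adjusted p = 2.64e-05). Plin3, a widely expressed coat protein of small droplets, had 74.7 and 72.2 CPM in n-Sen and 53.9 and 56.1 CPM in proliferating cells (0.42 ± 0.0638). Genes of triglyceride breakdown and mitochondrial import rose as well. Pnpla2, adipose triglyceride lipase, had 36.7 and 35.0 CPM in n-Sen and 19.0 and 15.3 CPM in proliferating cells (1.07 ± 0.0991, adjusted p = 3.77e-08). Cpt1a, which lets long-chain fatty acids enter mitochondria, had 84.8 and 93.0 CPM in n-Sen and 53.1 and 54.4 CPM in proliferating cells (0.73 ± 0.0664, adjusted p = 2.97e-08). Lipe had 3.56 and 4.13 CPM in n-Sen and 2.59 and 2.07 CPM in proliferating cells (0.73 ± 0.214, adjusted p = 0.00616). The call of Lipe was lost without n-Sen replicate 2 (0.62, adjusted p = 0.058).

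Of the adipogenic factors and uptake genes among the members, Pparg and Lpl fell, Cd36 rose, and Cebpa and Fabp4 did not pass. Pparg, the receptor that drives adipocyte differentiation, had 6.03 and 6.85 CPM in n-Sen and 15.7 and 15 CPM in proliferating cells (-1.25 ± 0.126, adjusted p = 1.07e-07). Lpl, the lipoprotein lipase, had 21.0 and 20.3 CPM in n-Sen and 48.4 and 45.5 CPM in proliferating cells (-1.18 ± 0.0797, adjusted p = 5.17e-10). Cd36, a fatty acid transporter and scavenger receptor, had 14.0 and 14.5 CPM in n-Sen and 2.52 and 2.29 CPM in proliferating cells, a 5.95-fold higher level (2.57 ± 0.147, adjusted p = 5.60e-11). That was the largest rise among the 32 genes. Cebpa, the partner factor of PPAR gamma, had 15.8 and 17.2 CPM in n-Sen and 18.1 and 17.4 CPM in proliferating cells and did not pass (-0.10 ± 0.102). Fabp4 had 5.00 and 5.02 CPM in n-Sen and 3.53 and 4.20 CPM in proliferating cells and did not pass either (0.37 ± 0.177, adjusted p = 0.0749), though it did without Proliferating replicate 2 (0.50, adjusted p = 0.0377). Macrophages are known to express Cd36, Lpl, Pparg, Fabp4 and Plin2. Of these members Cd36 and Plin2 rose, Lpl and Pparg fell and Fabp4 did not pass. All 20 macrophage markers rose in the same comparison. They summed to 1296 and 1379 CPM in n-Sen against 68.5 and 59.8 CPM in proliferating cells. The part of macrophages in the values of these members was not tested. In bulk RNA, more cells of a type and more RNA per cell cannot be told apart.

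Other genes of the same pathways gave mixed counts in n-Sen against proliferating cells. Of all genes tested there, 34.0% were called higher and 33.1% lower, with a median of 0.00. Of 30 tested genes of fatty acid supply, elongation and SREBP control, 12 rose, 13 fell and 5 did not pass (median -0.02). Among them the mitochondrial citrate carrier Slc25a1 and the desaturase relative Fads3 rose by 0.70 ± 0.0582 and 0.72 ± 0.0542, and Srebf2, the gene of SREBP2, and mitochondrial malic enzyme Me2 fell by 1.04 and 1.24. Of 17 tested genes of glycerolipid assembly, 8 rose and 7 fell (median 0.13), with Lclat1 and the CDP-diacylglycerol synthase Cds2 at 0.86 and 0.62 and Pcyt2 and Gpat4 at -0.82 and -0.60. Droplet and lipolysis genes rose in 8 of 14 tested cases and fell in 1 (median 0.36). Mgll, monoacylglycerol lipase, had 35.6 and 39.0 CPM in n-Sen and 11.7 and 10.2 CPM in proliferating cells. Lipa, the lysosomal acid lipase, had 117 and 126 CPM in n-Sen and 42.9 and 45.7 CPM in proliferating cells, and Fabp5 fell by 1.01. Genes of fatty acid uptake and oxidation rose in 14 of 33 tested cases and fell in 9 (median 0.08), among them the lipoprotein receptor Vldlr (1.51 ± 0.0770) and Cpt1c (1.33 ± 0.0773), with the thiolase Acaa2 falling by 0.86. The count of 9 was 4 without n-Sen replicate 1 and 5 without n-Sen replicate 2 or Proliferating replicate 1. Adipogenic regulators rose in 7 of 23 cases and fell in 10 (median -0.08). Dlk1, the preadipocyte factor that restrains adipogenesis, had 5.66 and 6.85 CPM in n-Sen and 188 and 168 CPM in proliferating cells (-4.82 ± 0.0893). Klf5 fell by 2.55, and the coactivator Ncoa1 and Gata2 rose by 0.76 and 0.61. Of the adipocyte markers, 3 of 12 were tested: Lipe rose, Fabp4 did not pass, and the glucose transporter Slc2a4 fell (-2.11 ± 0.486) at levels under 2 CPM. Of the 12 fibroblast markers, 10 rose and 2 fell (median 0.79), with Col3a1 at 2.60 and Pdgfra at -3.17.

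The second comparison asks how n-Sen cells respond to an alkaline environment. In alkaline medium Plin2 was 1.96-fold higher and Lpl fell to 0.448 of its level in control medium. The synthesis genes Fasn, Acly and Acaca and the acyl-CoA synthetases Acsl3 and Acsl4 rose by 0.21 to 0.44 on the log2 scale. Pparg and the synthesis gene Mid1ip1 fell. Plin4, the synthesis gene Acss2 and the synthetase Acsl1 fell too, but DESeq2 did not call these (adjusted p = 0.333, 0.0554 and 0.0777). Of the 32 genes, 6 rose, 8 fell and 18 did not pass, which is 43.8% called, where 20.0% of 19129 genes tested and 27.4% of the 12024 genes at least as abundant as Lipe were called. The shares called higher were 18.8% of the members and 9.58% of all genes, and those called lower 25.0% and 10.4%. By at least 1 on the log2 scale, Lpl was the 1 member that fell, where 1.80% of all genes did and 0.962% rose. Among the more abundant genes 13.8% were called higher and 13.6% lower. For 27 of the 32 members the alkaline and control libraries did not overlap, as for 56.7% of all genes tested, and the median log2 fold change was -0.01 for both. The count of 8 lower genes was 3 in DESeq2 and without n-Sen_alkali replicate 1, and 5 without any other library. Pparg, Lpl and Mid1ip1 were the 3 lower genes called by DESeq2.

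Plin2 (chromosome 4, 86648386 to 86670060) had 215 and 205 CPM in alkaline medium, against 107 and 107 CPM in control medium. The alkaline libraries lay above every other library of the series, and the level was 1.96-fold that in control medium (0.97 ± 0.0472, adjusted p = 5.31e-13). The other perilipins among the members went the other way. Plin4 had 2.78 and 6.23 CPM in alkaline medium and 7.63 and 8.71 CPM in control medium (-0.86 ± 0.219, adjusted p = 0.00624). The alkaline libraries of Plin4 differed widely, and its call was lost without n-Sen_alkali replicate 1 (-0.40, adjusted p = 0.106) and in DESeq2 (-0.86, adjusted p = 0.333). Plin3 had 61.1 and 59.0 CPM in alkaline medium and 65.7 and 68.1 CPM in control medium (-0.16 ± 0.0580, adjusted p = 0.0492). Its estimate was between -0.19 and -0.14 without each library in turn, where its call was lost each time. The adjusted p of Plin3 was 0.0931 in DESeq2 and 0.0563 in edgeR with RLE size factors in place of TMM. In edgeR it was 0.0508 without a low-count filter and 0.0766 with all 8 libraries in 1 fit. Only the rise of Plin2 among the 3 perilipin calls held without each of the 4 libraries and in DESeq2. Macrophage markers fell in 12 of 20 cases in this comparison, and their part was not tested.

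Fasn had 419 and 406 CPM in alkaline medium and 291 and 316 CPM in control medium, a 1.35-fold level (0.43 ± 0.0454, adjusted p = 1.62e-07). Acly had 303 and 304 CPM in alkaline medium and 252 and 260 CPM in control medium (0.24 ± 0.0423, adjusted p = 0.000185). Acaca had 83.0 and 79.1 CPM in alkaline medium and 68.0 and 71.5 CPM in control medium (0.21 ± 0.0563, adjusted p = 0.00968). The levels of Fasn, Acly and Acaca in alkaline medium remained below those of proliferating cells, which lie in the other table. The call of Acaca was lost without n-Sen_control replicate 1 (adjusted p = 0.0647) or n-Sen_alkali replicate 1 (adjusted p = 0.106). Mid1ip1 had 32.9 and 30.7 CPM in alkaline medium and 38.8 and 38.0 CPM in control medium (-0.28 ± 0.0719, adjusted p = 0.00628, and 0.0726 without n-Sen_alkali replicate 2). Acss2 had 14.5 and 15.8 CPM in alkaline medium and 18.7 and 18.7 CPM in control medium (-0.31 ± 0.0966, adjusted p = 0.0224). Acss2 lost its call without n-Sen_control replicate 1 (adjusted p = 0.0662), n-Sen_control replicate 2 (adjusted p = 0.0722) or n-Sen_alkali replicate 1 (adjusted p = 0.157), and in DESeq2 (adjusted p = 0.0554). Srebf1 had 72.9 and 70.6 CPM in alkaline medium and 62.1 and 76.3 CPM in control medium, where the libraries overlapped (0.04 ± 0.0719, from -0.10 to 0.19 at 2 SE). Without n-Sen_control replicate 2 Srebf1 was called higher (0.20, adjusted p = 0.0305), and without n-Sen_control replicate 1 its estimate was -0.10. Me1 had 223 and 225 CPM in alkaline medium and 220 and 216 CPM in control medium (0.03 ± 0.0432).

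Of the 6 elongases and desaturases among the members, 1 was called and 5 did not pass in alkaline medium, where 20.0% of all genes tested were called. Outside the members, Elovl4 fell in n-Sen against proliferating cells (-2.61 ± 0.151), with means of 2.38 and 14.6 CPM. Elovl7 and Scd4 fell too (-0.80 ± 0.34 and -1.83 ± 0.781), at means of 0.796 and 0.104 CPM in n-Sen. Elovl1 and Fads6 did not pass there (0.00 ± 0.0663 and 0.40 ± 0.629), and Fads3 rose. In alkaline against control medium Elovl1 and Fads3 rose (0.20 ± 0.0562 and 0.16 ± 0.0424). Elovl4, Elovl7 and Fads6 did not pass in alkaline medium, and Scd4 was not tested. Elovl6 had 21.1 and 21.1 CPM in alkaline medium and 23.9 and 25.1 CPM in control medium and did not pass (-0.22 ± 0.0846, adjusted p = 0.0658), though it did with all 8 libraries in 1 fit (adjusted p = 0.0375). Scd2 had 478 and 496 CPM in alkaline medium and 439 and 469 CPM in control medium (0.09 ± 0.0428, adjusted p = 0.139), and passed without n-Sen_control replicate 2 (0.14, adjusted p = 0.00736). Scd1, Elovl5 and Fads2 did not pass, with values of 0.10 ± 0.0471, -0.11 ± 0.0698 and -0.05 ± 0.0746. Fads1 fell, with 72.1 and 73.9 CPM in alkaline medium and 80.1 and 82.2 CPM in control medium (-0.16 ± 0.0544, adjusted p = 0.0391). The call of Fads1 was lost without each of the 4 libraries in turn (adjusted p from 0.0511 to 0.198), in DESeq2 (adjusted p = 0.0673) and with all 8 libraries in 1 fit (adjusted p = 0.0644).

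The 3 acyl-CoA synthetases among the members passed in alkaline medium, while Acsl5 and Acsl6 of the same family did not (0.04 ± 0.0652 and -0.71 ± 0.485). Over all genes tested in this comparison 20.0% were called, and 27.4% of those at least as abundant as Lipe. Acsl3 had 28.0 and 26.8 CPM in alkaline medium and 19.6 and 20.8 CPM in control medium (0.44 ± 0.0842, adjusted p = 0.000492). Acsl4 had 88.8 and 91.7 CPM in alkaline medium and 72.9 and 75.5 CPM in control medium (0.28 ± 0.0539, adjusted p = 0.000550). Acsl1 fell, with 10.2 and 10.8 CPM in alkaline medium and 12.4 and 14.4 CPM in control medium (-0.36 ± 0.116, adjusted p = 0.0295). The call of Acsl1 was lost without n-Sen_control replicate 2 (adjusted p = 0.299) or n-Sen_alkali replicate 1 (adjusted p = 0.109) and in DESeq2 (adjusted p = 0.0777). The 5 members of glycerolipid assembly did not pass, in edgeR or DESeq2, and 0 of 5 had an unadjusted p under 0.05. Their estimates ran from -0.14 ± 0.118 for Gpam to 0.30 ± 0.177 for Dgat2, and Lpin1 lay at -0.01 ± 0.0822. Likewise 0 of 3 members of lipolysis and oxidation passed in edgeR, in DESeq2 or at an unadjusted p under 0.05. Pnpla2 had 40.2 and 40.0 CPM in alkaline medium and 35.4 and 41.3 CPM in control medium, Lipe 4.16 and 3.59 CPM in alkaline and 4.23 and 3.5 CPM in control medium, and Cpt1a 63.5 and 65.2 CPM in alkaline and 66.0 and 69.2 CPM in control medium.

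Lpl had 8.87 and 9.03 CPM in alkaline medium and 19.0 and 20.8 CPM in control medium (-1.16 ± 0.106, adjusted p = 1.97e-08), the largest change among the members in this comparison. Pparg had 3.64 and 2.16 CPM in alkaline medium and 5.25 and 5.53 CPM in control medium (-0.91 ± 0.205, adjusted p = 0.00226). The alkaline libraries held the lowest Lpl and Pparg levels of the series. The other 3 genes of this group did not pass. Cd36 had 10.2 and 10.1 CPM in alkaline medium and 11.7 and 12.2 CPM in control medium (-0.24 ± 0.114, adjusted p = 0.152). Cebpa had 16.5 and 16.7 CPM in alkaline medium and 20.8 and 17.5 CPM in control medium (-0.22 ± 0.100, adjusted p = 0.147), and passed without n-Sen_control replicate 2 (-0.33, adjusted p = 0.0377). Fabp4 had 7.78 and 6.46 CPM in alkaline medium and 5.58 and 5.81 CPM in control medium (0.31 ± 0.149, adjusted p = 0.158). The fall of macrophage markers (12 of 20, median -0.31) stood beside these changes, with Mrc1 and Adgre1 at -1.43 and -0.58, and their part was not tested.

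**Figure D4:**
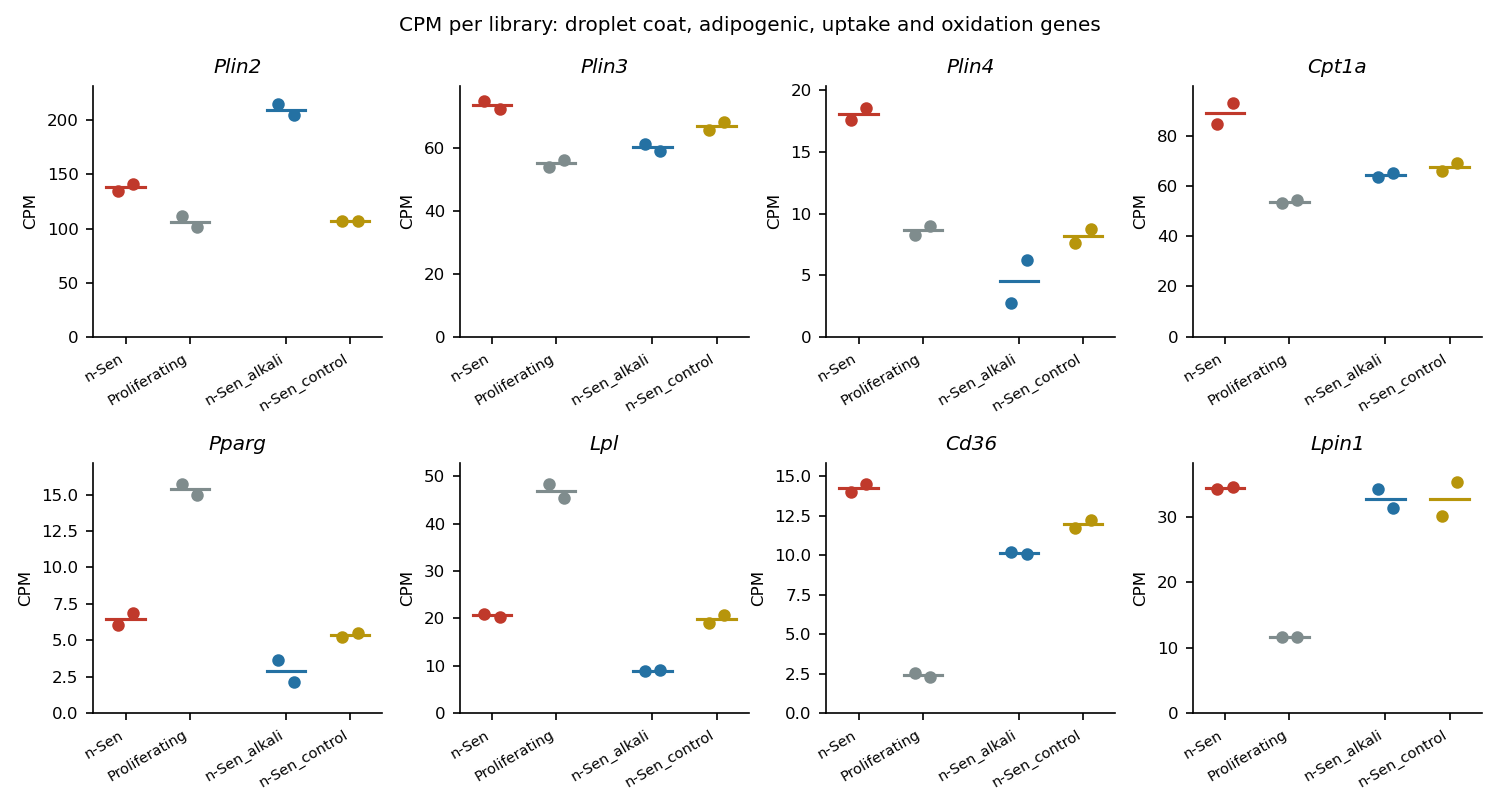
CPM (y axis, from 0) of 8 genes of droplet coating, adipogenesis, uptake, glycerolipid assembly and oxidation; points are the 2 libraries of a group and bars their mean. Plin2 reaches 215 and 205 CPM in alkaline medium against 107 and 107 CPM in control medium, Lpl and Pparg are lowest in alkaline medium, and the 2 alkaline libraries of Plin4 stand at 2.78 and 6.23 CPM.

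Of the other pathway genes in alkaline against control medium, 7 of 29 tested genes of fatty acid supply, elongation and SREBP control rose and 3 fell (median 0.08). For this and the lists below, 9.58% of all genes tested were called higher and 10.4% lower, with a median of -0.01. Insig1, which retains SREBPs in the endoplasmic reticulum and is itself induced by them, had 95.8 and 94.2 CPM in alkaline medium and 75.7 and 64.3 CPM in control medium (0.43 ± 0.0636). The mitochondrial malic enzyme gene Me3 had 3.79 and 4.55 CPM in alkaline medium and 8.43 and 7.80 CPM in control medium (-0.97 ± 0.153). The ketoacyl reductase Hsd17b12 rose by 0.19 ± 0.0468, and G6pdx of the pentose phosphate pathway fell by 0.22. The count of 7 was 2 without n-Sen_alkali replicate 1, and that of 3 was 1 without n-Sen_control replicate 2 or n-Sen_alkali replicate 2. Glycerolipid genes rose in 3 and fell in 3 of 17 cases (median 0.07), with the lipin gene Lpin3 at 31.5 and 34.7 CPM in alkaline medium and 18.4 and 17.8 CPM in control medium, Agpat1 at 0.23, Lclat1 at -0.41 and Cds2 at -0.22. Of 12 tested droplet and lipolysis genes, Lipa and the seipin gene Bscl2 fell by 0.29 and 0.31, and without n-Sen_control replicate 2 the count of these was 1. Uptake and oxidation genes rose in 2 and fell in 5 of 33 cases (median -0.14), where the count of 5 was 3 in DESeq2 and without n-Sen_alkali replicate 2. The fatty acid transporter Slc27a1 rose by 0.51 ± 0.0792. Vldlr had 27.9 and 31.4 CPM in alkaline medium and 54.5 and 50.3 CPM in control medium (-0.83 ± 0.0733), and Pdk4, the pyruvate dehydrogenase kinase, had 20.7 and 21.7 CPM in alkaline medium and 37.8 and 32.9 CPM in control medium (-0.74 ± 0.0840). Adipogenic regulators rose in 2 and fell in 5 of 23 cases (median -0.15). Wnt10b, a Wnt ligand that restrains adipogenesis, had 17.2 and 17.4 CPM in alkaline medium and 7.55 and 7.24 CPM in control medium (1.22 ± 0.111). The early adipogenic factors Cebpb and Cebpd fell by 0.70 and 0.82. Of the fibroblast markers 3 rose and 7 fell of 12, with Col1a1 at 0.42 and Pdgfra at -1.05. Of the adipocyte markers, 0 of 3 tested passed in edgeR or DESeq2, with 1 (Fabp4) at an unadjusted p under 0.05.

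The 2 comparisons share no library, so their calls can be set side by side. Of the 16 members lower in n-Sen, 5 were higher in alkaline medium (Acly, Acaca, Fasn, Acsl3 and Acsl4), 4 were lower again (Mid1ip1, Fads1, Pparg and Lpl) and 7 did not pass. Of the 11 members higher in n-Sen, 1 was higher in alkaline medium (Plin2), 3 were lower (Acss2, Plin3 and Plin4) and 7 did not pass. Over all 18484 genes tested in both comparisons, 10.7% of those lower in n-Sen were higher in alkaline medium and 8.47% were lower again, and 12% of those higher in n-Sen were higher in alkaline medium and 17.3% were lower. In DESeq2 the alkaline calls of Fads1, Acss2, Plin3 and Plin4 were lost, and those of the other members named here held. The mean level of Lpl was 20.7 CPM in n-Sen and 46.9 CPM in proliferating cells, and 8.95 CPM in alkaline and 19.9 CPM in control medium, so it was lower in both comparisons, by more than the spread between libraries.

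The n-Sen cells in control medium were also set against n-Sen cells outside the pH experiment, in a fit of all 8 libraries. These groups lie in different tables, and whether the n-Sen libraries passed through buffered medium is not stated. The medium, the added 24 h and any difference between the tables therefore cannot be told apart. The n-Sen_control libraries also serve in the comparison above. Of the 32 members 2 rose, 4 fell and 26 did not pass, which is 18.8% called, where 11.1% of 20215 genes tested were called, 6.18% higher and 4.96% lower. Among the 12064 genes at least as abundant as the least abundant member 16.5% were called, 8.95% higher and 7.54% lower. By at least 1 on the log2 scale, Plin4 was the 1 member that fell, where 0.312% of all genes did and 1.01% rose. For 21 of the members the libraries did not overlap, as for 52.0% of all genes tested. Plin4 had 7.63 and 8.71 CPM in control medium and 17.6 and 18.6 CPM in n-Sen (-1.15 ± 0.191, adjusted p = 0.000276). Plin2 had 107 and 107 CPM in control medium and 135 and 141 CPM in n-Sen (-0.37 ± 0.0549, adjusted p = 6.84e-05). Plin2 and Plin4 were thus lower in control medium than in n-Sen outside the pH experiment. In alkaline medium Plin2 stood above n-Sen, at 215 and 205 CPM, and Plin4 below it, at 2.78 and 6.23 CPM. Cpt1a had 66.0 and 69.2 CPM in control medium and 84.8 and 93.0 CPM in n-Sen (-0.40 ± 0.0602, adjusted p = 0.000100), and Scd2 fell by 0.22. Acsl3 and Acsl4 rose by 0.40 ± 0.0848 and 0.31 ± 0.0613, and Acsl4 lost its call without n-Sen replicate 2 (0.22, adjusted p = 0.0728). Fasn lay at -0.03 ± 0.0463, Lpl at -0.05 ± 0.0862 and Pparg at -0.26 ± 0.168, and these did not pass. Of genes outside the members, Pdk4 had 37.8 and 32.9 CPM in control medium and 22.2 and 22.3 CPM in n-Sen, and Cebpb had 48.4 and 58.6 CPM in control medium and 30.5 and 29.4 CPM in n-Sen, so both were higher in control medium than in n-Sen (0.67 ± 0.0889 and 0.83 ± 0.0914) and lower in alkaline than in control medium. Of the 20 macrophage markers 1 rose and 1 fell.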

How the data were processed

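Directional libraries of polyadenylated RNA were sequenced (labels' protocols). DESeq2 1.34.0, Subread 2.0.2 with featureCounts, HISAT2 2.1.0 and fastp 0.23.2 are the tools and mm10 the build, per the submitters' processing notes. How strand was set when reads were counted, and the annotation release, are not given in the sources used here. The authors deposited expected counts, which are estimated and can be fractional, in 2 tables of 54838 genes. Between 32.7% and 33.7% of a library's nonzero values were fractional, and for the members the fractional part made up at most 0.2297% of a gene's counts. No columns of other samples were present.

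Counts were rounded to whole numbers, filtered by filterByExpr and scaled by TMM. The main test was quasi-likelihood in edgeR 4.0.16 (R 4.3.3). The tables were fitted separately, and the comparison between them came from a fit of all 8 libraries. SE was the absolute log2 fold change divided by the square root of F. The procedure was also run on simulated counts. Far fewer genes changed there than were called here, so that run gives no support to the results. CPM used 1 TMM scaling over all 8 libraries, so a ratio of printed levels can differ slightly from the fitted fold change. Symbols, coordinates (mm10) and merged exon lengths came from GENCODE vM21, and start-site windows from RefSeq. The members, the other lists (fatty acid supply, glycerolipid assembly, droplet and lipolysis, uptake and oxidation, adipogenic regulators, and markers of adipocytes, macrophages, endothelium and fibroblasts) and the tests were chosen with earlier results of these data known. Of each other list the text names up to 2 genes of smallest p per direction among those called, and markers at 0; some genes that this rule names are not reported here. Plin5, Acsl5, Acsl6, Elovl1, Elovl4, Elovl7, Fads6, Scd4 and the values of Fads3 in alkaline medium were added after their values were seen. The windows shown were chosen after their genes' values were seen. Alternatives were RLE size factors in edgeR in place of TMM, DESeq2 1.42.0, no low-count filter and a replicate block. Others were 1 fit of all libraries and leaving out each library of the groups compared.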

Additional observations from a re-analysis of the deposited data

How the results depend on the processing

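For n-Sen against proliferating cells, the counts of members (11 higher, 16 lower) stayed within 1.5 times under every alternative run, and for alkaline against control medium so did the count of 6 higher. The count of 8 lower in alkaline medium was 3 in DESeq2 and 3 to 5 when each library was left out in turn; DESeq2 did not call 5 genes that edgeR did, and all of these keep their direction. In control medium against n-Sen, leaving out each library in turn gave 731 to 816 genes higher and 450 to 569 lower over all genes, against 1250 and 1003 with every library; the members counted 1 to 2 higher and 4 lower. The estimate changed sign only when a library was left out, and only in members not called with every library: in n-Sen against proliferating cells Acsl1 (-0.09 to 0.13) and Agpat2 (-0.19 to 0.14), in alkaline against control medium Srebf1 (-0.10 to 0.20), Agpat2 (-0.06 to 0.03), Lpin1 (-0.12 to 0.11) and Pnpla2 (-0.05 to 0.17), and in control medium against n-Sen Fasn (-0.09 to 0.03), Srebf1 (-0.14 to 0.15), Elovl6 (-0.04 to 0.03), Acsl1 (-0.15 to 0.07), Lpin1 (-0.19 to 0.04), Lpl (-0.12 to 0.01) and Pnpla2 (-0.01 to 0.21). Estimates that round to 0.00 were given no direction.

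The titles number the libraries 1 and 2 in each group, but same-numbered libraries did not deviate together (r = -0.0282, -0.00903 and -0.00318 over 20215 genes), so the numbers were not taken as pairs. With the replicate block the members counted 11 higher and 16 lower, 6 higher and 8 lower, and 2 higher and 4 lower in the 3 comparisons, in the order of the report. Another scaling moved the median of all genes by less than 0.1 on the log2 scale. Counts were lowest for Pparg, Lipe, Cd36, Plin4, Fabp4 and Dgat2, each with at least 1 library of 95 to 170 counts. With 2 libraries per group, small differences that did not pass are not shown to be absent.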
